A study of Mus musculus with 4 samples.

Results

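The 10 genes described here, Fos, Fosb, Junb, Egr1, Arc, Npas4, Nr4a1, Nr4a3, Dusp1 and Ier2, are immediate early genes, chosen by name as a measure of how far neurons or other cells had been activated when the tissue was taken. All 10 were matched by Ensembl identifier among the 25044 entries of the deposited tables, and all 10 passed the filter of a mean of 0.1 FPKM, fragments per kilobase of transcript scaled to the depth of the library. The 4 RNA sequencing libraries came from the parasubthalamic nucleus (PSTh) of naive C57BL/6 mice, an inbred strain, and formed 1 group. The PSTh is a small, mainly glutamatergic nucleus next to the subthalamic nucleus, at the edge of the hypothalamus. No stressed mice were sequenced, so nothing here measures an effect of stress. The labels used here give no age, sex, time between handling and tissue collection, or statement on pooling, and none states that the replicates are separate animals. Any p-value therefore measures only the spread between these libraries.

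Immediate early genes are transcribed within minutes of a stimulus, without new protein synthesis. In neurons, calcium entry and cyclic AMP activate kinases that phosphorylate factors already bound at these genes, among them CREB, which binds the cAMP response element, and SRF with its ETS partners, which bind the CArG box. Their transcripts are short-lived, so the level in a tissue piece reflects the recent past, and they are widely used as marks of recently active neurons. Several, such as Fos, Junb, Dusp1 and Ier2, also respond to growth factors and cell stress in glia and vessels.

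The promoters are shown first, for the 7 of the 10 genes that have an entry in the RefSeq promoter table (GRCm38.p6). Egr1, Arc and Ier2 have no entry. In the 250 bases before the start site, the core of the cAMP response element, TGACG on either strand, was present in all 7, against 17.8% of all 32851 promoter windows of the same length. The full palindrome TGACGTCA, which contains that core, was present only in Dusp1, against 1.55% of all windows. The CArG box was present in none of the 7 and in 1.47% of all windows, and the TATA box TATAAA was in Fos alone, at -33 to -28, against 12.4%. The AP-1 site TGANTCA and the EGR site GCGTGGGCG were in none of the 7, against 6.75% and 0.536% of all windows. Both strands were searched. A match describes letters only, its bearing on the levels was not tested, and windows of 250 bases leave out more distant elements.

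For Fos, Fosb, Junb and Nr4a1 the 130 bases directly before the start site are printed 5′ to 3′ on the gene's strand, with the core in capitals in either orientation. They lie at chr12:85473760-85473889 (plus strand), chr7:19310046-19310175 (minus), chr8:84978749-84978878 (minus) and chr15:101266716-101266845 (plus). Fos has the core at -129 and again at -66, Fosb at -60, Junb at -106 and Nr4a1 at -69 and -40, with further copies of the core in Nr4a1 upstream of the stretch shown.
Fos: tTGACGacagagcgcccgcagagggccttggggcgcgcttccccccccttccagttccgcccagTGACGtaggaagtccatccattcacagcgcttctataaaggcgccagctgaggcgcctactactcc
Fosb: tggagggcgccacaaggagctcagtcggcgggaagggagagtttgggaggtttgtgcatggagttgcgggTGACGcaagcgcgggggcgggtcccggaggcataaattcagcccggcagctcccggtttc
Junb: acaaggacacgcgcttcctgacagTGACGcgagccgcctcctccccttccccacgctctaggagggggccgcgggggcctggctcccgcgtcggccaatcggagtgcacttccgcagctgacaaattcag
Nr4a1: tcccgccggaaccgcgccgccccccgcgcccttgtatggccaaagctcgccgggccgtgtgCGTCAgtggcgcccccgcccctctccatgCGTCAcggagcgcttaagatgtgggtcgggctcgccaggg

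For Nr4a3 and Dusp1 the core lies further upstream of the RefSeq start. The 30 bases printed around it are at chr4:48045085-48045114 (plus strand) and chr17:26508597-26508626 (minus). Nr4a3 carries the core here as a pair facing in opposite directions a few bases apart, and Dusp1 carries the palindrome. Neither stretch overlaps an exon in GENCODE M21, and of those printed above only that of Fosb does, by 6 bases. Of the 130 bases directly before the RefSeq start, all 130 in Nr4a3 and 47 in Dusp1 are annotated as exon there, so these distances depend on the start used. The Nr4a1 and Dusp1 stretches lie within the annotated spans of their genes, since other annotated transcripts start further upstream. The 2 cores of Npas4, at -179 and -169 from the RefSeq start, lie in sequence that GENCODE M21 annotates as exon, and that stretch is not printed.
Nr4a3: cccatgtCGTCAcatTGACGtctcgcattc
Dusp1: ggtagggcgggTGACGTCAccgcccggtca

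The libraries did not have the same tissue content. Their depth was only estimated: the spacing of low values implied between about 20200000 and 21300000 fragments per library. That spacing was sought only within a preset range, so a depth far from these values could not have been found. Summed levels lay between 428612 and 442836 FPKM. All 9 genes of a list of parasubthalamic and subthalamic markers had a mean of 1 FPKM or more, but so did 13044 of the 17630 genes tested and every gene of the thalamus, lateral hypothalamus and midbrain dopamine lists, so this does not tell the labelled nucleus from its neighbours. Markers of neighbouring regions differed by library. The thalamus list was highest in replicate 3, by a median of 2.38 log2 units against the mean of the other libraries, the medial hypothalamus and midbrain dopamine lists were highest in replicate 2, by 1.92 and 1.01, and the lateral hypothalamus list was highest in replicate 4, by 0.91. A hindbrain and spinal cord list was higher in replicate 1 by 4.30, with summed levels of 41.2, 21.9, 8.38 and 10.1 FPKM in replicates 1 to 4. Lists of neurons and astrocytes differed by at most 0.09 in any library. In bulk tissue, fewer cells of a type and less RNA per cell cannot be told apart.

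The Fos and Jun proteins pair to form AP-1, the factor that carries the early response on to later genes. Fos, which encodes c-Fos and is the most used activity marker, lay at 20.5, 12.2, 8.78 and 16.3 FPKM in replicates 1 to 4, with a mean of 14.4 ± 5.06 (SD, n = 4). Replicates 1 and 4 were thus the high libraries, and the highest value was 2.33 times the lowest. Fosb, whose splice forms include the long-lived ΔFosB, which these gene-level values do not separate, stood at 1.49, 0.683, 0.702 and 1.60 FPKM in the same order, with a mean of 1.12 ± 0.494. Its high pair was again replicates 1 and 4. Junb, an AP-1 partner that also restrains Jun, stood at 11.9, 9.74, 6.27 and 13.2 FPKM, with a mean of 10.3 ± 3.03, and replicates 1 and 4 were once more above replicates 2 and 3. The annotated span of Junb overlaps Prdx2 on the opposite strand, an abundant gene at 160.3 to 175 FPKM that was lowest in replicate 4, and the use of strand in counting is not given. Fos (ENSMUSG00000021250) lies at chr12:85473890-85477273, Fosb (ENSMUSG00000003545) at chr7:19302696-19310051 and Junb (ENSMUSG00000052837) at chr8:84974484-84978718 (GRCm38, GENCODE M21).

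Npas4 is a transcription factor of the bHLH-PAS family that responds almost only to calcium entry in neurons. It was the lowest member, at 1.11, 0.764, 0.539 and 0.665 FPKM in replicates 1 to 4, with a mean of 0.769 ± 0.243 (SD, n = 4). Here only replicate 1 stood above the rest. Replicates 2 to 4 rest on about 41 to 60 fragments each, so their order is uncertain. Npas4 (ENSMUSG00000045903) lies at chr19:4984355-4990316.

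Nr4a1 and Nr4a3 encode orphan nuclear receptors, also called Nur77 and NOR-1, which act without a known classical ligand. Nr4a1 stood at 7.82, 7.35, 6.77 and 11.5 FPKM in replicates 1 to 4, with a mean of 8.35 ± 2.12 (SD, n = 4), so that replicate 4 stood above a close group of the other libraries. Nr4a3 stood at 2.06, 1.10, 0.885 and 1.71 FPKM, with a mean of 1.44 ± 0.542, and followed the order of Fos, replicate 1 highest and replicate 3 lowest. The receptors of this family therefore differed in which library was highest. Nr4a1 (ENSMUSG00000023034) lies at chr15:101254269-101274795 and Nr4a3 (ENSMUSG00000028341) at chr4:48045153-48086447.

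Arc encodes a cytoskeleton-associated protein that moves to active synapses and promotes removal of AMPA receptors. It stood at 9.40, 9.59, 11.3 and 10.6 FPKM in replicates 1 to 4, with a mean of 10.2 ± 0.900 (SD, n = 4). Unlike Fos, it was lowest in replicate 1 and highest in replicate 3, within a narrow range. Dusp1, a phosphatase that switches off MAP kinases, stood at 12.997, 11.3, 12.8 and 11.4 FPKM, with a mean of 12.1 ± 0.899 and a range of 1.15 times, the narrowest of the 10. Its annotated span overlaps Ergic1 on the opposite strand, at 38.9 to 46.8 FPKM, and the pseudogene Gm8225, also opposite, at 5.20 to 9.05 FPKM. Further overlapping annotations on the strand of Dusp1 have no deposited value. Ier2, a small nuclear protein of the early response, stood at 3.70, 2.97, 4.21 and 3.89 FPKM, with a mean of 3.69 ± 0.524, lowest in replicate 2. Arc (ENSMUSG00000022602) lies at chr15:74669083-74672570, Dusp1 (ENSMUSG00000024190) at chr17:26505590-26562128 and Ier2 (ENSMUSG00000053560) at chr8:84661331-84662852.

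Egr1, also called Zif268, is a zinc finger transcription factor with a marked basal level in many neurons. It stood at 13.9, 9.82, 11.0 and 19.3 FPKM in replicates 1 to 4, with a mean of 13.5 ± 4.22 (SD, n = 4). Replicates 1 and 4 were the high pair, with replicate 4 well above replicate 1, the reverse of Fos. Egr1 carries the identifier ENSMUSG00000038418.

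**Figure D1:**
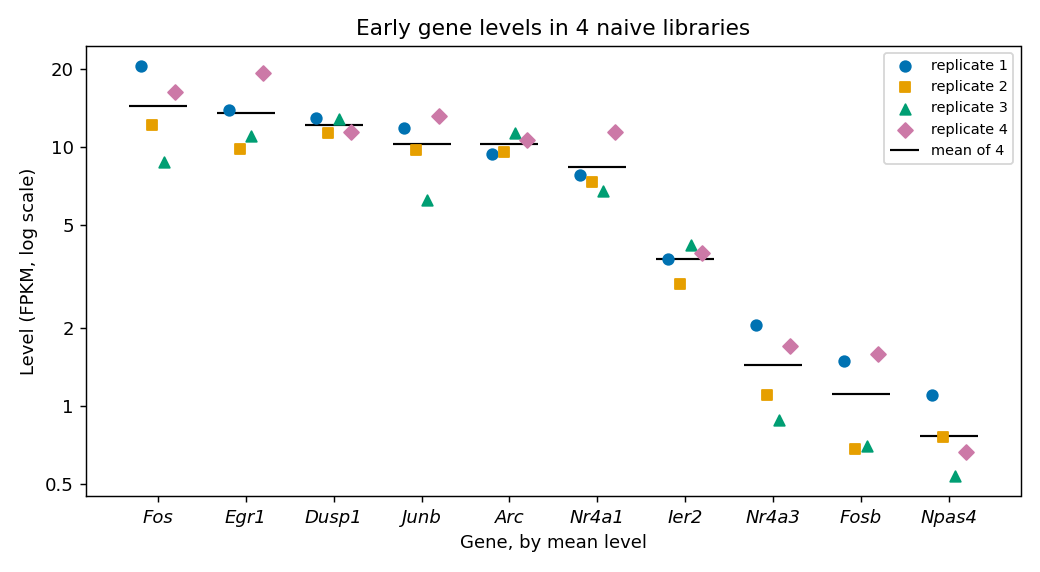
Level of each of the 10 genes in FPKM (log scale) in replicates 1 to 4, ordered by mean level, with the mean of the 4 libraries as a line. Fos, Egr1, Junb, Nr4a1, Nr4a3 and Fosb have replicates 1 and 4 on top, while the points of Dusp1 (range 1.15 times) and Arc lie close together.

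By mean level the genes fell into an upper group of 6, from Fos at 14.4 to Nr4a1 at 8.35 FPKM, then Ier2 at 3.69, and a lower group of 3, Nr4a3, Fosb and Npas4, from 1.44 to 0.769 FPKM. Among all 17630 genes tested the means stood between percentile 22.7 for Npas4 and 73.2 for Fos. Within the upper group no neighbours differed beyond their spread. The log2 difference of Fos and Egr1 was 0.07 (SD 0.43 over libraries, Fos higher in 2 of 4), that of Egr1 and Dusp1 was 0.11 (SD 0.45), that of Dusp1 and Junb was 0.29 (SD 0.52), that of Junb and Arc was -0.04 (SD 0.55) and that of Arc and Nr4a1 was 0.32 (SD 0.35). The steps from Nr4a1 to Ier2, 1.14 (SD 0.37), and from Ier2 to Nr4a3, 1.36 (SD 0.56), had the same sign in 4 of 4 libraries and exceeded their spread. Nr4a3 was above Fosb in 4 of 4 libraries by 0.36 (SD 0.22), while Fosb and Npas4 differed by 0.43 (SD 0.53) with 3 of 4 in that direction. With 4 libraries a two-sided exact permutation of signs cannot reach the threshold of 0.05, so these steps carry no p.

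Each gene was then set against Fos within the libraries, per length, in a limma fit over all genes. Of the 9 other members 5 were lower than Fos and 0 higher, where 60.1% of all genes tested were lower and 17.1% higher, so the share of lower members was close to that of genes at large. Npas4 was 16.4-fold lower, at -4.04 log2 units (SE 0.26, adjusted p = 1.51e-05), and Fosb was 12.1-fold lower, at -3.60 (SE 0.27, adjusted p = 2.14e-05). Nr4a3 was 9.44-fold lower, at -3.24 (SE 0.25, adjusted p = 2.41e-05), and Ier2 was 3.68-fold lower, at -1.88 (SE 0.31, adjusted p = 0.00118). These 4 were below Fos in 4 of 4 libraries and passed under every alternative in which they were tested. Nr4a1 passed narrowly, at -0.74 (SE 0.29, adjusted p = 0.0479, lower in 4 of 4). Its call was lost without replicate 1 (-0.53), 2 (-0.75) or 4 (-0.82), with 0.01 in place of 0.1 added before logarithms (-0.75), without the filter on low values (-0.74) and on values multiplied by transcript length (-0.47). Junb did not pass, at -0.47 (adjusted p = 0.132, lower in 4 of 4), nor did Arc at -0.43 (adjusted p = 0.255), Dusp1 at -0.18 (adjusted p = 0.601) and Egr1 at -0.07 (adjusted p = 0.822). On values multiplied by transcript length, which rank genes roughly by fragments, Egr1 passed as higher at 1.01 and Junb passed as lower at -0.69.

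The ratio of Fos to each member shows which genes followed Fos from library to library. Nr4a3 followed it most closely of the 9: Fos was 9.94, 11.1, 9.92 and 9.50 times Nr4a3 in replicates 1 to 4, a range of 1.17 times, although Fos itself ranged over 2.33 times. The log2 difference of these genes had an SD of 0.09. Nr4a3 rests on about 250, 132, 102 and 204 fragments in replicates 1 to 4, which limits how closely this ratio is known. Junb came next, with Fos 1.72, 1.25, 1.40 and 1.23 times its level and an SD of 0.22. The ratio to Fosb ranged from 10.2 to 17.9 (SD 0.30) and that to Npas4 from 16.0 to 24.5 (SD 0.29). Arc stood at the other end: Fos was 2.18 times Arc in replicate 1 and 0.776 times in replicate 3, a range of 2.80 times (SD 0.61). Ier2 (SD 0.59) and Dusp1 (SD 0.53) were similar to Arc, and Nr4a1 (SD 0.45) and Egr1 (SD 0.43) lay between. These ratios share the values of Fos and describe 4 libraries, with no test of the difference in spread.

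**Figure D2:**
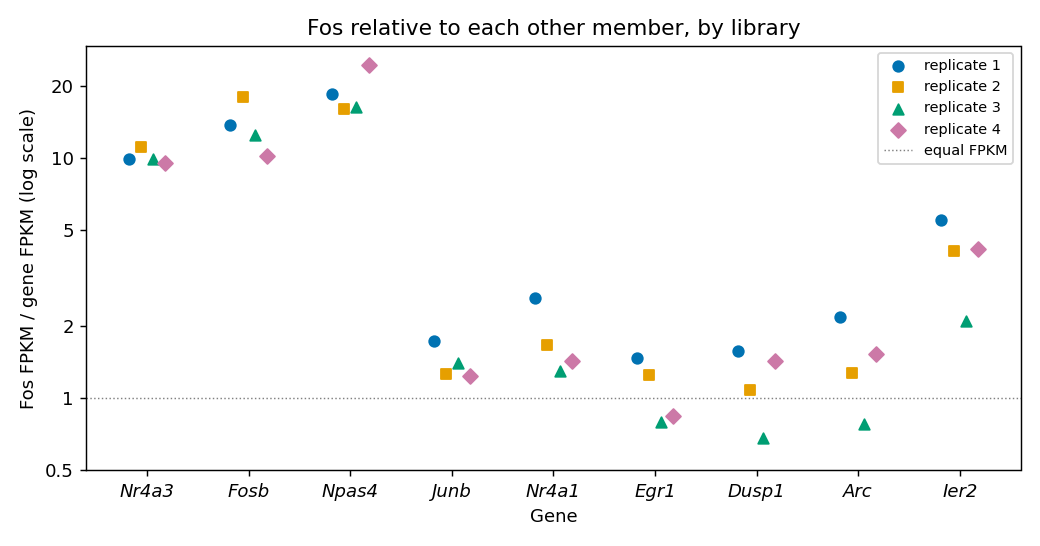
Fos FPKM divided by the FPKM of each other member (log scale) in replicates 1 to 4, with a dotted line at equal levels. The 4 points of Nr4a3 lie between 9.50 and 11.1, while those of Arc run from 0.776 in replicate 3 to 2.18 in replicate 1.

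The spread between libraries was compared with that of genes of like level by limma's trended variance test. With Benjamini-Hochberg adjustment 0 of 10 members were called, as were 0 of 17630 genes (0%). At an unadjusted p under 0.05 there were 4 members, Fos, Egr1, Junb and Nr4a1, of 10, against 1031 genes or 5.85% of all. The variance of Fos was 19.6 times that fitted for its level (SD 0.52 log2 units, adjusted p = 0.483), that of Junb 13.6 times (SD 0.47, adjusted p = 0.586), that of Egr1 12.7 times (SD 0.43, adjusted p = 0.616) and that of Nr4a1 6.19 times (SD 0.33, adjusted p = 0.852). Fosb and Nr4a3, both low in level, were at 4.57 and 4.17 times. Ier2 at 1.45, Npas4 at 1.40, Arc at 0.973 and Dusp1 at 0.759 were near the fitted spread of their level. The median over the 10 members was 4.37, against 0.93 over all genes tested. Other lists had similar or higher medians: 4.26 for the genes of the later neuronal response (8 of 20 with an unadjusted p under 0.05), 5.11 for parasubthalamic and subthalamic markers (4 of 9), 5.33 for heat shock genes (6 of 12) and 9.91 for oligodendrocyte markers (9 of 10). By this ratio Fos ranked 216 among all genes tested. None of the excess passed adjustment, so none of the members was shown to vary more than genes of its level. With 4 libraries the test could call few genes: Hcrt, at 611 times its fitted variance, did not pass either (adjusted p = 0.076). Not passing therefore does not show that a member varied as little as genes of its level.

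**Figure D3:**
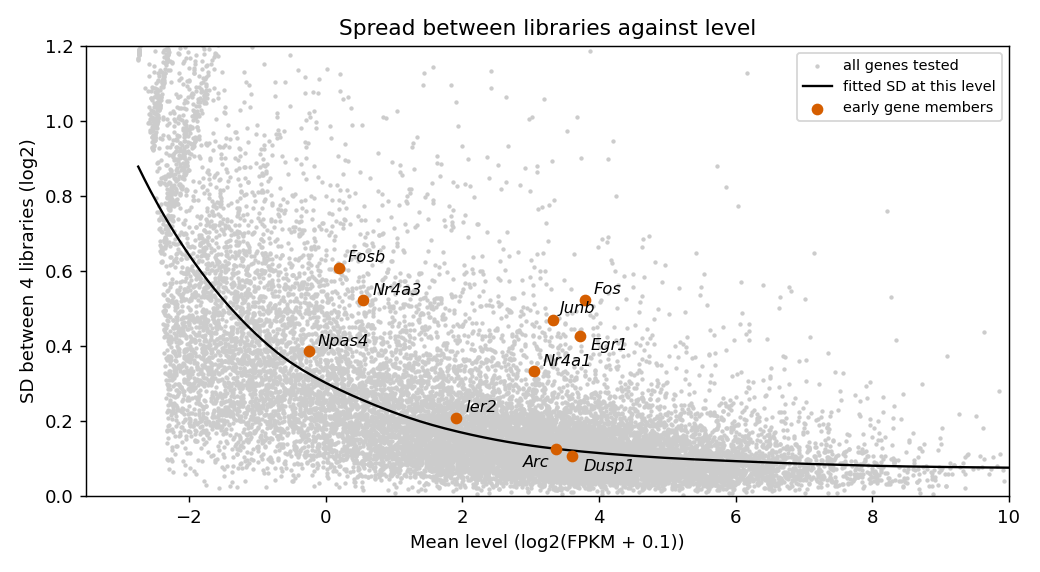
SD of the log2 level between the 4 libraries against mean level for all genes tested (grey, vertical axis ending at 1.2), the SD fitted for each level (line) and the 10 members (orange). Fos, Junb and Egr1 lie between 0.43 and 0.52, well above the line, and Arc and Dusp1 lie on it.

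Each library was next set against the mean of the other libraries on the log2(FPKM + 0.1) scale, a description without a test. In replicate 1 the members were higher by a median of 0.24, with 8 of 10 above the others against 49.9% of all genes. In replicate 4 they were higher by a median of 0.36, again with 8 of 10 above, against 52.7%. In replicate 3 the median was -0.45, with 3 of 10 above against 41.9%, and in replicate 2 it was -0.21, with 1 of 10 above against 59.1%. The median over all genes lay within 0.05 of 0 in every library. Leaving out a library changed no sign, but moved these medians: replicate 1 stood at 0.51 when replicate 4 was left out and at 0.15 when replicate 3 was, replicate 4 at 0.67 when replicate 1 was left out and at 0.20 when replicate 3 was, and replicate 2 at -0.36 when replicate 3 was. Dropping Npas4 by a filter of 1 FPKM brought replicate 1 to 0.13, and setting libraries against the median of the others brought replicate 2 to -0.33.

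Differences past 0.5 log2 units fell on different members by library. In replicate 1, 4 of 10 were that far above, Fos at 0.76, Nr4a3 at 0.74, Npas4 at 0.68 and Fosb at 0.64, against 7.64% of all genes, and 0 were that far below, against 8.1%. In replicate 4, 4 of 10 were above, Fosb at 0.76, Egr1 at 0.75, Nr4a1 at 0.64 and Junb at 0.55, against 6.26%, and 0 were below, against 6.71%. Only Fosb was past this limit in both libraries. In replicate 3, 5 of 10 were below, Junb at -0.87, Fos at -0.86, Nr4a3 at -0.77, Fosb at -0.68 and Npas4 at -0.54, against 9.96%, and 0 were above, against 7.31%. In replicate 2, 2 of 10 were below, Fosb at -0.73 and Egr1 at -0.54, against 6.01%, and 0 were above, against 8.25%. Arc, Dusp1 and Ier2 were within 0.5 in every library, at most 0.20, 0.13 and 0.39 away. In 6 of 10 members, all but Npas4, Arc, Dusp1 and Ier2, replicates 1 and 4 were both above replicates 2 and 3, an order found in 15.4% of all genes and looked at only after the values were seen.

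**Figure D4:**
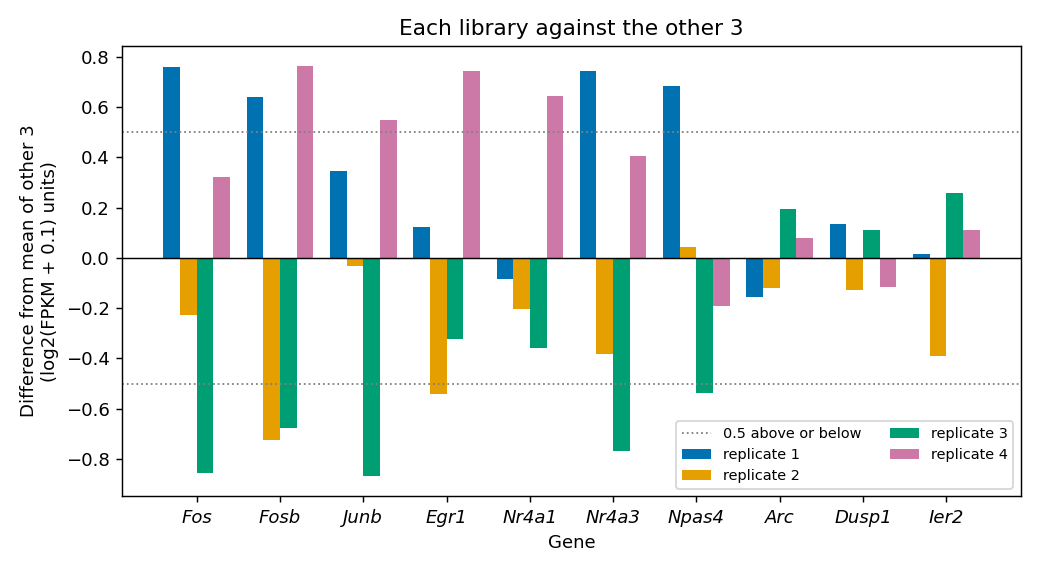
Difference of each library from the mean of the other 3 in log2(FPKM + 0.1) units for the 10 genes, with dotted lines at 0.5 above and below. Replicates 1 and 4 rise and replicate 3 falls for Fos, Fosb, Junb and Nr4a3, with Junb at -0.87 in replicate 3, and the bars of Arc, Dusp1 and Ier2 stay within the lines.

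Of 42 other rapid early genes, all tested, 1 was higher than Fos, 34 were lower and 7 did not pass, and the list's share of lower genes was above the 60.1% of all genes. Jund, a steadily expressed AP-1 subunit, was the higher one, at 78.7, 86.9, 82.4 and 83.3 FPKM in replicates 1 to 4, with a log2 difference from Fos of 2.58. Its variance was 0.411 times that fitted for its level, and it was not high in replicates 1 and 4. Jun, the partner of c-Fos in AP-1, stood at 14.9, 17.2, 16.8 and 16.3 FPKM, lowest in the library where Fos was highest. Its range was only 1.16 times, and its variance was 0.655 times that fitted for its level. Rgs2, a regulator of G protein signalling, stood at 23.9, 23.8, 20.5 and 22.9 FPKM. Among those with a mean of 1 FPKM or more, the 3 with the largest SD were Egr3, Egr4 and Dusp5. Egr3 and Egr4, relatives of Egr1, were both highest in replicate 4, Egr3 at 0.835, 0.815, 0.774 and 2.59 FPKM and Egr4 at 1.202, 1.14, 0.690 and 2.28 FPKM. Dusp5, a nuclear phosphatase of ERK, was highest in replicate 3, at 2.09 FPKM against 0.651 to 1.15.

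The medians of this list were nearer 0 than those of the 10 members, a difference that was not tested. Its median difference from the other libraries was 0.07, 0.02, -0.16 and 0.05 in replicates 1 to 4. In replicate 3, 12 of 42 were more than 0.5 below (9.96% of all genes) and 3 above (7.31%), and in replicate 1, 7 were above (7.64%) and 3 below (8.1%). In replicate 4, 5 were above (6.26%) and 0 below (6.71%), and in replicate 2, 0 were above (8.25%) and 4 below (6.01%). In 13 of 42, replicates 1 and 4 were both above replicates 2 and 3, against 15.4% of all genes. Its median variance ratio was 1.52, and 5 of 42 had an unadjusted p under 0.05 in the variance test, against 5.85%.

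Genes of the later neuronal response, 20 in the list, included 5 that were higher than Fos and 8 that were lower. Of all genes tested 17.1% were higher and 60.1% lower. The most abundant were Scg2, a secretogranin of dense-core vesicles, at 323 FPKM on average, Vgf, a neuropeptide precursor, at 84.9, and Rgs4, a regulator of G protein signalling, at 69.8. Sgk1, a kinase induced by glucocorticoids and by activity, stood at 63.1, 36.6, 24.1 and 59.4 FPKM in replicates 1 to 4, so replicates 1 and 4 were the high pair as for Fos. Bdnf, the neurotrophin gene with several activity-dependent promoters, stood at 9.09, 5.41, 5.37 and 7.41 FPKM, also with replicates 1 and 4 above the others. Rasgrp1 went the other way, at 35.9 FPKM in replicate 3 against 7.75 to 9.96. Rgs4 and Kcna1, a potassium channel, were also highest in replicate 3, and Kcna1 was lowest in replicate 1 at 2.32 FPKM. The thalamus list was highest in replicate 3 too, by a median of 2.38 log2 units, and its bearing on these levels was not tested. Median differences of the later response list were 0.01, -0.01, -0.12 and 0.08 in replicates 1 to 4. In 5 of its 20 genes, replicates 1 and 4 were above replicates 2 and 3, against 15.4% of all genes.

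The kinases and factors that act upstream, 33 in the list, had median differences between -0.10 in replicate 3 and 0.09 in replicate 4, but single genes differed more. Of the 33, 5 had an unadjusted p under 0.05 in the variance test, against 5.85% of all genes. Among these, named after their values were seen, Elk1, an ETS partner of SRF, stood at 2.77, 7.45, 6.75 and 7.48 FPKM in replicates 1 to 4, and Mef2c, a calcium-regulated factor, at 3.61, 5.04, 8.58 and 8.57 FPKM. Both were lowest in replicate 1, where Fos was highest, as were Camk2a and Mef2a. Rps6ka2, the last of the 5, was lowest in replicate 3 at 6.80 FPKM, the library where Fos was lowest. Relative to Fos 12 of the 33 were higher, against 17.1% of all genes, and 14 were lower, against 60.1%. The most abundant were Prkacb and Prkaca, catalytic subunits of protein kinase A, at 149.6 and 118.3 FPKM on average, and Mapk3, which encodes ERK1, at 100.9. Srf, the factor that binds the CArG box, stood at 7.74, 8.73, 8.01 and 8.49 FPKM.

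Other gene groups differed between the same libraries as the members, and their part in the members' levels was not tested. The parasubthalamic and subthalamic list was above the other libraries by a median of 0.44 in replicate 1 (7 of 9 genes) and 0.24 in replicate 4 (8 of 9), and stood at -0.26 in replicate 2 and -0.47 in replicate 3. Its summed levels were 515, 359, 324 and 451 FPKM, the same order of libraries as Fos. Its most abundant genes were Calb2, which encodes calretinin, Slc17a6, the vesicular glutamate transporter gene, and Tac1, the substance P precursor. The heat shock and handling list was higher in replicate 1, by 0.34 with 12 of 12 genes above, and stood at 0.00, -0.19 and -0.15 in replicates 2 to 4, with summed levels of 1860, 1835, 1656 and 1694 FPKM. The blood cell list, with 6 of its 7 genes tested, was higher in replicate 1 by 2.62, with summed levels of 45.8, 3.03, 10.9 and 15.3 FPKM in replicates 1 to 4. The mural cell and fibroblast list was higher in replicate 1 by a median of 0.56, and stood at -0.28 in replicate 4. Its 6 of 10 genes above in replicate 1 were near the 49.9% of all genes, but all 6 were past 0.5, against 7.64%. The oligodendrocyte list was lower in replicate 1, at -0.44, and higher in replicate 3, at 0.34 with 10 of 10 genes above, with summed levels of 6072, 7002, 8801 and 8191 FPKM. No list had a gene at 0 in all libraries. The list of excitatory neurons was highest in replicate 4, by 0.54, and stood at -0.28 to -0.43 in the others, and the cortex and hippocampus list ran from -0.47 in replicate 3 to 0.16 in replicate 4. The choroid plexus and ependyma list had medians of -0.21, 0.10, -0.21 and 0.24, with summed levels of 16.5, 16.5, 16.7 and 66.5 FPKM. Most of the excess in replicate 4 was Ttr, which encodes transthyretin, at 49.7 FPKM there against 0.587 to 1.99. Medians of the lists of inhibitory neurons, oligodendrocyte precursors, microglia and endothelium differed by at most 0.29 in any library.

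**Figure D5:**
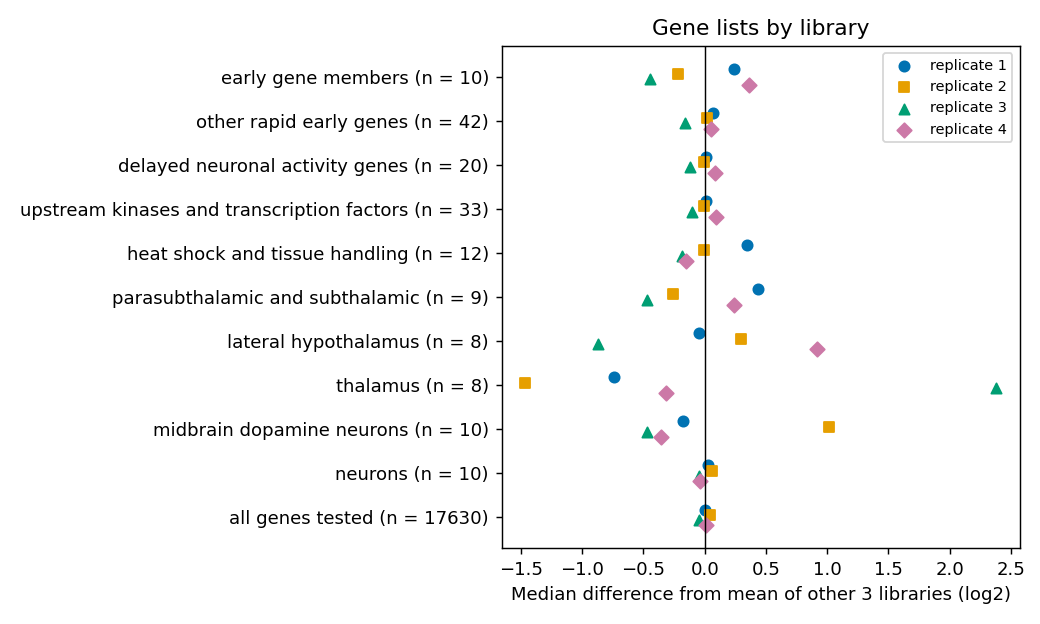
Median difference of each gene list from the mean of the other 3 libraries (log2 units), by replicate, with the number of genes tested. The members and the parasubthalamic and subthalamic list both have replicates 1 and 4 on the right and replicates 2 and 3 on the left, while neurons and all genes lie near 0.

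The genes whose pattern over the 4 libraries was nearest to the median pattern of the members were Pcdh11x, a protocadherin, a locus without an Ensembl identifier, Trim47, Crh and Zfp882, at root mean square differences of 0.031 to 0.039 log2 units. Crh, the corticotropin-releasing hormone gene, stood at 2.15, 1.79, 1.501 and 2.29 FPKM in replicates 1 to 4. The members themselves lay further from their median pattern, from 0.165 for Nr4a1 to 0.305 for Arc. Of the 13035 other genes averaging at least 1 FPKM, 823 or 6.31% were nearer than Nr4a1, so with 4 libraries such likeness is common.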

How the data were processed

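RNA was extracted with TRIzol and made into mRNA libraries for Illumina sequencing, per the labels' protocols. The assembly is GRCm38, per the submitters' processing notes. Which aligner and counter were used, and whether strand was used, is not given in the sources used here. Values the authors deposited are read as FPKM, although no label or header names the unit: they are not whole, their totals differ, and value times transcript length clusters at whole steps. Between 36.7% and 48.0% of low products lay within 0.1 of a whole step, so counts were not recovered, fragment numbers are approximate and no counting intervals were computed. The column headed with a C in place of a number was taken as replicate 3 from the sample's title.

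Symbols and gene positions came from GENCODE M21, which matched 22022 of 22036 Ensembl identifiers. The 17630 genes averaging at least 0.1 FPKM were analysed as log2(FPKM + 0.1), which understates differences of low genes. Differences from Fos were fitted in limma 3.58.1 (R 4.3.3) with an intercept only, two-sided, with p-values adjusted by Benjamini-Hochberg across 17629 genes (threshold 0.05). Every difference shares the deviation of Fos, so the prior degrees of freedom were capped at 3.78, the value found when each gene's own level was fitted. The variance test used limma's trended, robust prior (4.28 degrees of freedom). Other steps ran in Python 3.11.15 with pandas 2.3.3, numpy 2.4.6 and, for figures, matplotlib 3.10.9.

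The members and lists were chosen with earlier results of these data known. The rule for named genes takes all members, Jun, Jund, Bdnf and Srf, and the 3 most abundant genes of each list described. From the other rapid and the delayed genes with a mean of 1 or more, it takes the 3 with the largest SD. It also takes the 5 nearest in pattern. The text does not follow it fully. The 3 most abundant are all named only for the other rapid, delayed, upstream and parasubthalamic lists. Ttr and Hcrt are named for the size of their differences. Alternatives changed the pseudocount, filter, scaling, length correction, prior and libraries.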

Additional observations from a re-analysis of the deposited data

Results flagged for a closer look

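In 3 of the 32 genes examined, 1 library stood apart from the rest under Dixon's criterion, where chance gives about 5% for normally distributed values. Some of the 32 were chosen for a large SD in these same values, Egr3 and Rasgrp1 among them, so that rate does not apply to those genes. None of the 10 members was among them. Egr3 had a ratio of gap to range of 0.966, with 2.59 FPKM in replicate 4 against 0.774 to 0.835 in the other libraries. Rasgrp1 had a ratio of 0.922, with 35.9 FPKM in replicate 3 against 7.75 to 9.96. Prkacb had a ratio of 0.899, with 122 FPKM in replicate 3 against 157 to 161.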

How the results depend on the processing

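No paired analysis was possible because all libraries belong to 1 group. The variance test called 0 genes in all and 0 members under the main setting; leaving out each library gave 0 to 8 genes over all genes tested, 4 without replicate 3 and 8 without replicate 4, and 0 members each time, and the cause was not tested. The count of members lower than Fos stayed within 1.5 times of 5 under every alternative. On values multiplied by transcript length 1 member, Egr1, passed as higher, and its difference from Fos turned from -0.07 to 1.01, since its longest transcript is 4484 bases against 2108 for Fos. Nr4a1 lost its call in 6 of 12 alternatives and Junb gained one in 1. The signs of the members' median differences between libraries were the same under every alternative tried, including both other scalings. Npas4, Fosb and Ier2 rest on about 41 to 129 fragments a library, and Nr4a3 on about 102 to 250. This limits what their differences can show.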

Other observations

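Genes named here were chosen after their values were seen. Among the other rapid early genes, Fosl2, another partner in AP-1, stood at 2.38, 1.42, 0.945 and 1.79 FPKM in replicates 1 to 4, the same order of libraries as Fos. Nr4a2, the remaining member of the NR4A receptors and also a marker of midbrain dopamine neurons, was highest in replicate 1 at 15.9 FPKM and lowest in replicate 3 at 7.73, with 12.02 and 10.9 in replicates 2 and 4. Klf2, a flow-responsive factor of endothelium, stood at 11.9, 8.25, 6.17 and 9.24 FPKM, and Sik1, a kinase induced by cyclic AMP, at 3.60, 3.16, 1.84 and 3.82. Gadd45b, a stress and activity gene, was almost level, at 6.50, 6.47, 6.38 and 6.41 FPKM.

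The inducible heat shock genes Hspa1a, Hspa1b and Hspb1 were high in replicate 1, but not in replicate 4, the other library in which several members were high. Hspa1a stood at 11.7, 5.37, 4.06 and 4.98 FPKM in replicates 1 to 4, Hspa1b at 10.5, 4.32, 3.51 and 4.07, and Hspb1 at 32.2, 13.7, 15.5 and 10.6. Hspa8, the constitutive form, was highest in replicate 2 at 977 FPKM. Dnajb1 and Hsph1 of the same list had the order of libraries of Fos, with replicate 4 second highest. Dnajb1 stood at 38.1, 23.0, 19.6 and 26.6 FPKM in replicates 1 to 4, and Hsph1 at 106.7, 92.2, 81.4 and 93.6. None of these differences was tested.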
